A study of Homo sapiens with 6 samples.

Results

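The 217 genes described here are the long intergenic noncoding RNAs (lincRNAs) that MCF10A cells expressed above a fixed count. They were chosen from the read counts themselves: of the 58735 genes counted, 7629 carry the lincRNA biotype and 7446 of these lie on an autosome, and a gene was kept where each of the 6 libraries held at least 20 reads. No reads at all were counted on 4773 of the autosomal lincRNA genes, and 505 passed the edgeR filter for testing, among them all 217 kept. Because the minimum had to be met in every library, a lincRNA that was silent in one group was left out however high it was in the other.

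MCF10A is an established line of nonmalignant human breast epithelial cells. Both groups were cells of this line in DMEM/F12 with horse serum, insulin, EGF, cholera toxin, hydrocortisone and penicillin/streptomycin. The 3 siControl libraries came from cells given a nontargeting control pool, and the 3 siDAB2IP libraries from cells given siRNA against DAB2IP, a RasGAP that restrains Ras and NF-κB signaling. RNA was taken 48 hours after transfection in both. The comparison asks which lincRNAs differ once DAB2IP is depleted. It rests on 1 line and 1 siRNA treatment, so loss of DAB2IP and any other effect of that siRNA cannot be told apart, nor can fewer cells expressing an RNA and less of it per cell. No source states that the replicates were separate cultures, so p-values measure the spread between these libraries, which may be technical.

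LincRNAs are transcribed from their own promoters, spliced and mostly polyadenylated like messenger RNAs, but encode no known protein. Some scaffold nuclear bodies or bind proteins, others are processed into microRNAs (miRNAs) or small nucleolar RNAs (snoRNAs), and for many no function is known. They are generally less abundant than messenger RNAs and more restricted to particular cell types, and many start close to the promoter of a coding gene on the opposite strand.

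The libraries held 16353783 to 21916062 counts, and the biological coefficient of variation over all genes was 14.8%. DAB2IP itself was at 103, 94.2 and 77.4 CPM (counts scaled to the library total and TMM factor) in the siControl replicates and at 27.5, 25.6 and 22.4 CPM in the siDAB2IP replicates, a log2 fold change of −1.86 (SE 0.13, adjusted p = 9.71e-05). All 10 mammary epithelial markers examined averaged at least 5 CPM, and their sum was 9109 to 11169 CPM in siControl and 6322 to 7448 CPM in siDAB2IP, whose part in the results was not tested. The basal keratins KRT5 (3532 to 1800 CPM on average) and KRT14 (2186 to 765) were lower in siDAB2IP and the laminin gene LAMB3 (856 to 1733) higher. Of the leukocyte markers, CD3E had no counts and CD14 averaged 56.8 CPM in siControl and 64.6 CPM in siDAB2IP. The 4 fibroblast markers summed to 162 to 293 and 146 to 205 CPM, and the 3 endothelial markers to 11.0 to 16.0 and 7.42 to 11.2 CPM. Most of the fibroblast sum was DCN, at 201 CPM on average in siControl and 143 CPM in siDAB2IP. COL1A1 averaged 15.3 and 26.3 CPM, PDGFRB 0.954 and 0.620 CPM and COL3A1 0.0415 and 0 CPM. Of the luminal markers, GATA3 averaged 20.1 and 14.6 CPM, FOXA1 4.64 and 9.67 CPM, ESR1 0.249 and 0.489 CPM and PGR 0 in both. One library stood apart: across the 217 lincRNAs, siDAB2IP replicate 3 correlated with the other siDAB2IP replicates at 0.950 in log2 CPM, while those 2 correlated at 0.973 and the siControl replicates at 0.967 to 0.973. Mitochondrial transcripts took 12.8% of its counts, against 9.59% to 10.9% in the other 5.

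Most of the lincRNAs were scarce. Per length, their mean level over the 6 libraries had a median of 1.87 FPKM (counts scaled by gene length and library size), with the lower and upper quartiles at 1.05 and 3.87 FPKM and the extremes at 0.149 and 95.2 FPKM. The autosomal protein-coding genes that met the same count minimum had a median of 5.98 FPKM. Only 13 lincRNAs averaged at least 10 FPKM, and 52 averaged less than 1 FPKM. Together they received 0.341% to 0.400% of the counts in siControl and 0.283% to 0.426% in siDAB2IP.

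A handful of RNAs dominated. SNHG19, a snoRNA host, had the highest level at 95.2 FPKM, followed by SNHG8 at 80.6 FPKM, also a snoRNA host, and NORAD at 77.2 FPKM, a cytoplasmic RNA that binds the Pumilio proteins. NEAT1, the scaffold of paraspeckles, averaged 42.6 FPKM, and MALAT1, an RNA of nuclear speckles, 39.4 FPKM. SNHG4 (23.3 FPKM), LNCAROD (14.6), MIR22HG (14.3), AC093484.4 (14.3) and SNHG15 (14.0) completed the 10 with the highest FPKM. In raw counts, which grow with length, the 3 leading RNAs were NEAT1, NORAD and MALAT1. They held 48.8% to 52.8% of all lincRNA counts in siControl and 39.4% to 45.7% in siDAB2IP.

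**Figure D1:**
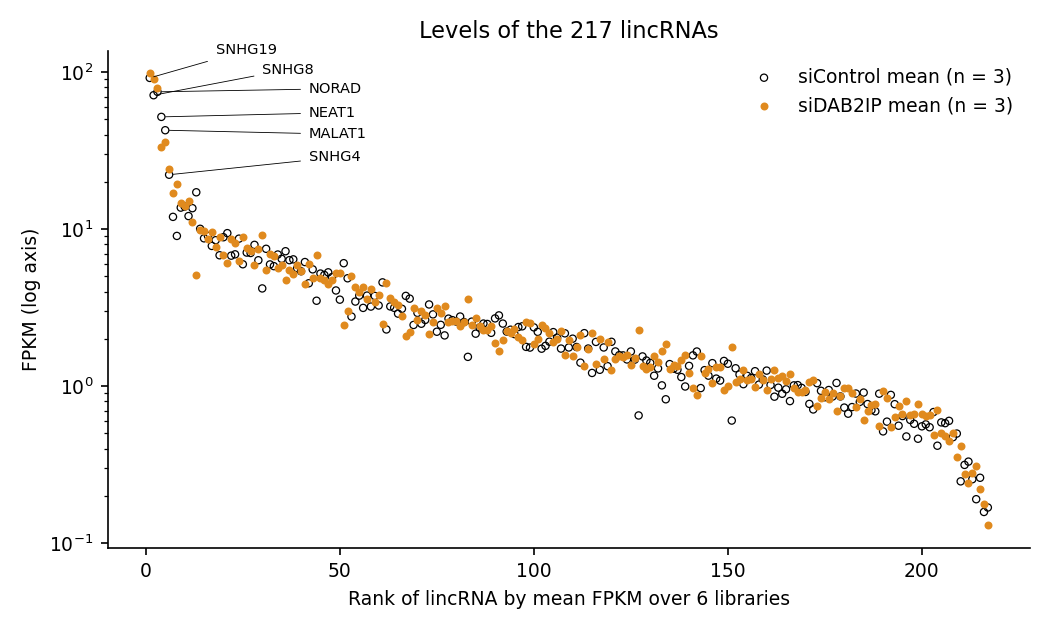
Mean FPKM (log axis) of each of the 217 lincRNAs in the siControl and siDAB2IP libraries (3 each), ranked by the mean over all 6. Only 13 lincRNAs reach 10 FPKM, and for most genes the circles of both groups lie close together.

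The 217 genes lay on all 22 autosomes, with the largest number, 22, on chromosome 1. Exon length ranged from 284 to 22767 bases with a median of 2774 bases. Known only by the name of a genomic clone were 103 of them, and 69 had a single exon. The exons of 82 overlapped those of another annotated gene on either strand, and for 48 that gene was itself expressed enough to be tested. The values of such genes are uncertain, since the strand setting of the counting is not given in the sources used here.

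After DAB2IP knockdown 21 of the 217 lincRNAs changed at an adjusted p under 0.05, 14 upward and 7 downward. This is 9.68% of the lincRNAs, against 14.2% of all 15430 genes tested, 15.7% of the 12781 genes with at least 20 counts in each library, and 16.6% of autosomal protein-coding and 6.18% of autosomal antisense genes at that minimum. By direction, 6.45% of the lincRNAs rose and 3.23% fell. Over all genes tested 6.55% rose and 7.65% fell, and at the count minimum 7.15% and 8.54%. The siControl and siDAB2IP values did not overlap for 52 lincRNAs (24.0%), among them all 21 that changed, while the groups were separate for 35.9% of all genes tested and 38.4% of those at the minimum. At an unadjusted p under 0.05, 50 of the 217 lincRNAs passed, against 30.0% of all genes tested.

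The share of changed genes was larger at higher abundance. Under a mean of 5 CPM, 7 of 130 lincRNAs (5.38%) changed, against 5.91% of all genes with at least 20 counts in each library. Between 5 and 20 CPM, 10 of 65 lincRNAs changed (15.4%, against 15.4%), and from 20 CPM upward 4 of 22 (18.2%, against 18.3%). Within each range of abundance the lincRNA share was thus close to that of all genes, and 130 of the 217 lay in the lowest range. The median standard error of the log2 fold change was 0.25 over all 217 lincRNAs and 0.14 over all genes at the count minimum. The median levels were 4.17 CPM for the lincRNAs and 27.3 CPM for those genes.

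**Figure D2:**
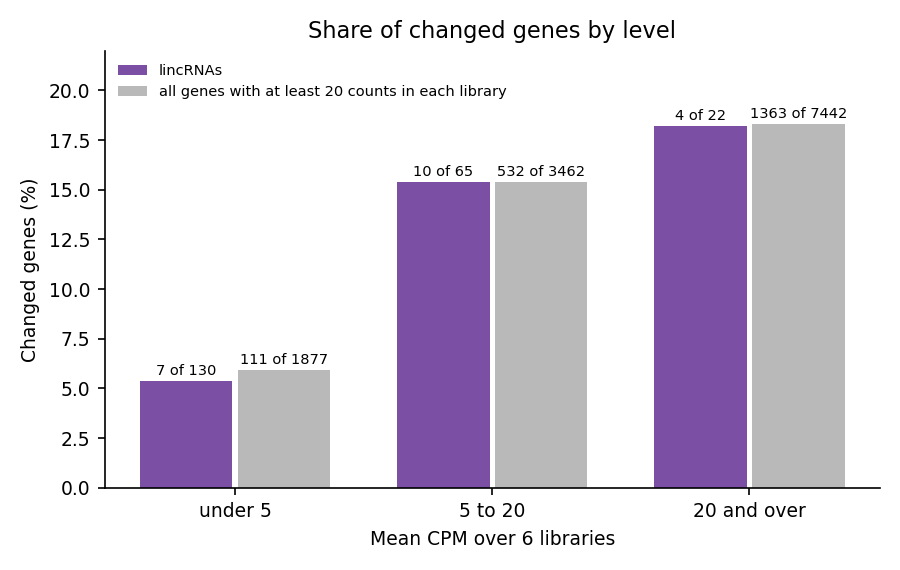
Percentage of changed genes (adjusted p under 0.05) among the lincRNAs and among all genes with at least 20 counts in each library, in 3 ranges of mean CPM over the 6 libraries. The bars of both sets rise with abundance and differ little within a range, at 5.38% and 5.91% below 5 CPM and at 18.2% and 18.3% from 20 CPM.

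The fold changes had no common direction. The median log2 fold change of the lincRNAs was 0.03 (−0.04 without siDAB2IP replicate 3), compared with 0.01 over all genes tested, and 116 were positive and 101 negative. The lower and upper quartiles were −0.22 and 0.31, and the extremes were −1.74 for AL161431.1 and 1.81 for LINC00313.

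**Figure D3:**
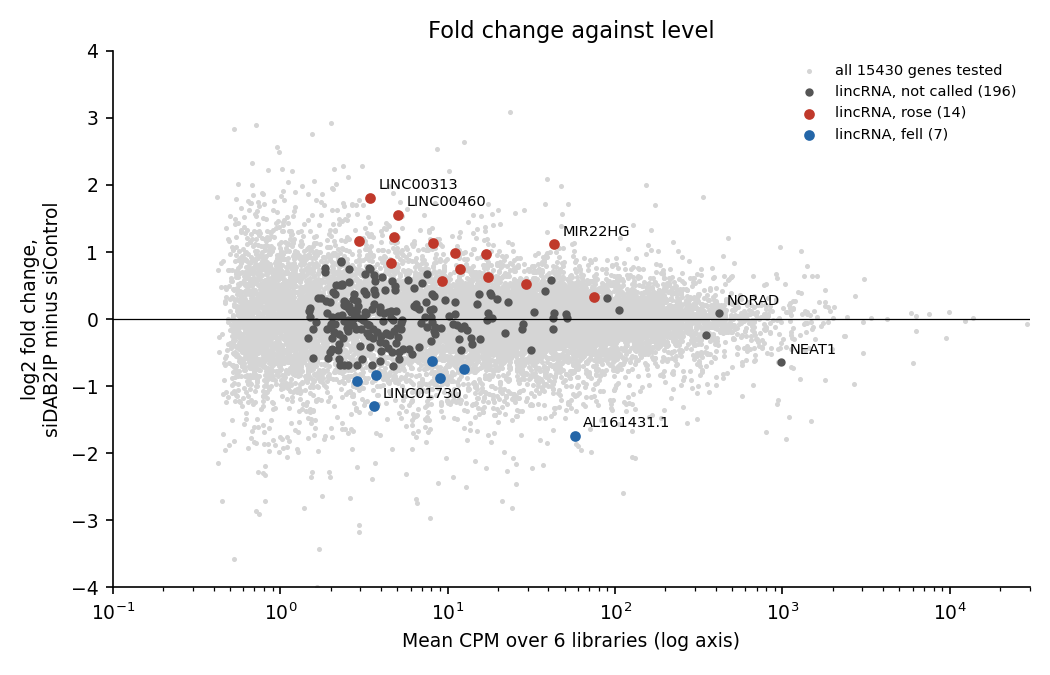
log2 fold change of siDAB2IP over siControl against the mean CPM over the 6 libraries (log axis) for all genes tested (grey) and the 217 lincRNAs, with 4 grey genes beyond the axes. The 14 lincRNAs that rose (red) and the 7 that fell (blue) lie among many of like level that were not called (dark grey).

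The smallest p-value and the deepest fall both belonged to AL161431.1 (ENSG00000275216, chr13:109269634-109278512, plus strand, GRCh38), for which no role is given here. It was at 99.2, 70.4 and 95.1 CPM in the siControl replicates and at 28.0, 22.9 and 28.5 CPM in the siDAB2IP replicates. All siDAB2IP values lay far below all siControl values. The log2 fold change was −1.74 (SE 0.15, adjusted p = 0.000222), or 3.33-fold lower, and with a mean of 11.2 FPKM it was among the most abundant members. Its exons overlapped no other gene.

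LINC01730 (chr20:3808357-3812434, plus strand) fell as well, from 5.86, 4.60 and 5.05 CPM to 2.37, 2.55 and 1.33 CPM. The groups were far apart, with siDAB2IP replicate 3 lowest, and the log2 fold change was −1.30 (SE 0.27, adjusted p = 0.0131). The gene AL109804.1 on the same strand, which had too few counts to be tested, shares 25.1% of its exon length. LINC01315 (chr22:42364400-42369236, minus strand) was at 5.42, 4.36 and 4.64 CPM in siControl and at 2.48, 2.49 and 3.07 CPM in siDAB2IP, without overlap (log2 fold change −0.84, SE 0.22, adjusted p = 0.0306). When 1 library was left out, LINC01315 was called only without siDAB2IP replicate 3 (adjusted p up to 0.0962 in the others). Both held the E-box letters CACGTG, which basic helix-loop-helix factors such as MYC and USF bind, in the 300 bases around the RefSeq start. These promoters are shown in the direction of transcription for that shared word, which is in capitals. The LINC01730 window is chr20:3808244-3808543 on the plus strand and the LINC01315 window chr22:42369159-42369458 on the minus strand, both of GRCh38.p14.
LINC01730: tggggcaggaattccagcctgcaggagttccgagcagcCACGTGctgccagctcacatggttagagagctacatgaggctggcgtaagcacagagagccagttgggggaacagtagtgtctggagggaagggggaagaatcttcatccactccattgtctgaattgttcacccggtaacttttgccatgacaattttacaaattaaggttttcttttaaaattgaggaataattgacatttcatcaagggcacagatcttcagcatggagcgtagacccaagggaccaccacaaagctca
LINC01315: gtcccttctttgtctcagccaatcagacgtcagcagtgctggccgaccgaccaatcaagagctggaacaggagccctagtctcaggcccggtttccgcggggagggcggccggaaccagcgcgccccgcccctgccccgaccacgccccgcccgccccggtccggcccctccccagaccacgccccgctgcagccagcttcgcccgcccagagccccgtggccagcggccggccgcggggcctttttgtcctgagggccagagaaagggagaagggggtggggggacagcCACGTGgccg

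FOXD2-AS1 (chr1:47432133-47434641), transcribed away from the forkhead gene FOXD2, went from 13.1, 11.5 and 10.2 CPM to 8.01, 6.31 and 4.64 CPM. Each siDAB2IP value lay below all siControl values, and the log2 fold change was −0.87 (SE 0.21, adjusted p = 0.0235), a call lost without siControl replicate 1, siControl replicate 2 or siDAB2IP replicate 2 (adjusted p up to 0.0780). LINC02035 went from 17.8, 13.5 and 15.6 CPM to 12.4, 7.37 and 8.18 CPM, with siDAB2IP replicate 1 close below the lowest siControl library (log2 fold change −0.74, SE 0.21, adjusted p = 0.0402). Of the fits with 1 library left out, only that without siDAB2IP replicate 1 called it (adjusted p up to 0.121). Limma on log2(FPKM + 1) (adjusted p = 0.0641) and on log2(FPKM + 0.1) (0.0685) did not call it either. LINC00235, which starts 310 bp from the protease gene CAPN15 on the opposite strand, was at 3.55, 3.85 and 3.93 CPM in siControl and at 1.75, 1.55 and 2.67 CPM in siDAB2IP (log2 fold change −0.93, SE 0.26, adjusted p = 0.0424). For this gene too the groups were separate, and replicate 3 was the highest of the siDAB2IP libraries. Only without that library was it still called (adjusted p up to 0.141 without another). With all libraries, LINC00235 was not called by library size only (adjusted p = 0.0530) or with limma on log2(FPKM + 0.1) (0.0558).

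AC005332.6 was at 9.41, 9.29 and 10.6 CPM in siControl and 7.45, 6.48 and 5.10 CPM in siDAB2IP, a separation that gave a log2 fold change of −0.62 (SE 0.18, adjusted p = 0.0479). Of the 6 fits that leave out a library it was called only without siDAB2IP replicate 1, and the adjusted p otherwise reached 0.134. With all libraries, AC005332.6 was not called by library size only (adjusted p = 0.0540) or with limma on log2(FPKM + 0.1) (0.0518). The opposite-strand pseudogene LRRC37A16P overlaps 48.4% of its exon length and was itself not called (log2 fold change −0.45, adjusted p = 0.172), so reads of these genes cannot be told apart without strand.

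The largest rise was that of LINC00313 (chr21:43462094-43479534, minus strand). It stood at 1.43, 1.58 and 1.53 CPM in siControl and at 3.38, 3.49 and 9.16 CPM in siDAB2IP, a log2 fold change of 1.81 (SE 0.40, adjusted p = 0.0168). The groups were apart, but siDAB2IP replicate 3 was far above replicates 1 and 2, and without that library the log2 fold change was 1.18 (adjusted p = 0.0115). The call was lost without any 1 of the siControl replicates 1, 2 and 3 (adjusted p up to 0.0702). It was also lost with limma on log2(FPKM + 1) (adjusted p = 0.0655). LINC00460 (chr13:106374477-106384315, plus strand), studied in carcinomas of several epithelia, rose from 2.68, 1.95 and 3.11 CPM to 5.64, 6.31 and 10.7 CPM. It was again highest in replicate 3, with a log2 fold change of 1.56 (SE 0.29, adjusted p = 0.00893, and 0.0529 without siControl replicate 2).

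MYOSLID (chr2:207239650-207245887, plus strand), known as a myocardin-induced RNA of smooth muscle, rose from 4.86, 4.97 and 5.46 CPM to 8.91, 10.2 and 14.4 CPM. The siControl values were tight and all siDAB2IP values lay above them (log2 fold change 1.13, SE 0.21, adjusted p = 0.00760). Of its exon length, 32.5% overlaps the antisense gene AC009226.1, which had too few counts to be tested. The RefSeq promoters of MYOSLID (chr2:207239561-207239860, plus strand) and LINC00460 (chr13:106376314-106376613, plus strand, both GRCh38.p14) are shown because, of the 8 risen lincRNAs with a matched promoter, these 2 held the AP-1 letters TGANTCA, the word bound by Fos and Jun proteins, in capitals. The LINC00460 window lies at a RefSeq start 2087 bp from the GENCODE gene start.
MYOSLID: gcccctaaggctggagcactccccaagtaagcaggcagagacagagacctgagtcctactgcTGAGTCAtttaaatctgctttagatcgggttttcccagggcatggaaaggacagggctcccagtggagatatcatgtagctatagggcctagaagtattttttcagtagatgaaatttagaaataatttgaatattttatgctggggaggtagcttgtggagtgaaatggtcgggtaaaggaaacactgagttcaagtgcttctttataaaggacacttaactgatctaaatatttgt
LINC00460: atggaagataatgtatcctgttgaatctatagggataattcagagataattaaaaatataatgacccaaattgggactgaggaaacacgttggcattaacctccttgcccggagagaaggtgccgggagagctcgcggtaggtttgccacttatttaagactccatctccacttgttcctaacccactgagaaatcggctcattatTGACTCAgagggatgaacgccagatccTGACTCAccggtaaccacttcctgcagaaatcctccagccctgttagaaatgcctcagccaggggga

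RefSeq promoters, running from 250 bases before to 50 bases after a start within 5 kb of the GENCODE start, were found for 71 lincRNAs. On either strand, AP-1 letters stood in 7.04% of these and in 7.71% of 35116 promoters of all genes, and E-box letters in 9.86% and 7.26%. E-box letters were in 2 of the 5 fallen and 0 of the 8 risen lincRNAs with a promoter. The NF-κB motif, searched because DAB2IP restrains this factor, was in 7.04% of the lincRNA and 5.91% of all promoters, and in none of the 13 promoters of changed lincRNAs. The CCAAT box (CCAAT) was in 45.1% of the lincRNA promoters against 34.6% of all, the GC box (GGGCGG) in 59.2% against 45.0%, the TATA box (TATAAA) in 5.63% against 11.5%, the CRE (TGACGTCA) in 1.41% against 1.85% and the CArG box in 0% against 1.29%. The lincRNA promoters had a median GC content of 65.0%, compared with 58.7% for all promoters. A match is a description of the letters and not a binding site.

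BX470102.2 (chr1:153586813-153606283, minus strand), named after its clone, had the smallest p among the risen RNAs, at 6.92, 7.20 and 7.98 CPM in siControl and 14.2, 13.3 and 16.4 CPM in siDAB2IP. Its values were tight in both groups (log2 fold change 0.99, SE 0.15, adjusted p = 0.00394). The gene spans 19.5 kb on the strand of S100A16, a calcium-binding protein gene with a start 6.86 kb away and a log2 fold change of 0.42 (adjusted p = 0.157). AC092171.2 (chr7:5475804-5479811, plus strand) rose from 11.9, 9.66 and 12.9 CPM to 19.8, 22.4 and 25.2 CPM (log2 fold change 0.97, SE 0.16, adjusted p = 0.00483). It lies within FBXL18, a gene for an F-box protein of ubiquitin ligases on the opposite strand, but shares no exon bases with it. FBXL18 itself went from a mean of 11.0 to 20.7 CPM. Since the strand setting is not given, FBXL18 intron reads in this stretch cannot be told apart from those of the lincRNA.

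Of the RNAs named by LINC numbers, LINC00941 (ENSG00000285517) was at 8.54, 9.15 and 8.81 CPM in siControl and 14.9, 16.1 and 13.2 CPM in siDAB2IP (log2 fold change 0.74, SE 0.14, adjusted p = 0.0101, and 0.0518 without siControl replicate 2). LINC00941 also lost the call with limma on log2(FPKM + 1) (adjusted p = 0.167) and on log2(FPKM + 0.1) (0.226). A shorter gene of the same name and strand, which had no counts, shares 6.61% of its exon length. LINC00857, studied in several carcinomas, went from 2.18, 1.95 and 1.29 CPM to 3.84, 4.71 and 3.65 CPM (log2 fold change 1.17, SE 0.26, adjusted p = 0.0185), and the call was lost without siControl replicate 2, siControl replicate 3 or siDAB2IP replicate 2 (adjusted p up to 0.0706). LINC01184 rose from 14.7, 14.3 and 12.2 CPM to 22.2, 23.3 and 18.1 CPM (log2 fold change 0.63, SE 0.15, adjusted p = 0.0214). With 1 library left out it was called only without siDAB2IP replicate 3 (adjusted p up to 0.0860). CCDC192 on the opposite strand, also not tested, overlaps 0.603% of its exon length. None of these 3 had its highest siDAB2IP value in replicate 3.

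LINC02043 rose from 2.62, 2.74 and 3.17 CPM to 5.81, 3.93 and 10.2 CPM (log2 fold change 1.22, SE 0.33, adjusted p = 0.0347). Replicate 3 lay far above the others, and without that library the log2 fold change was 0.78 (adjusted p = 0.0541). With 1 library left out, it was called only when that was siDAB2IP replicate 2 (adjusted p up to 0.128). LINC02043 was also not called with limma on log2(FPKM + 1) (adjusted p = 0.0799) or log2(FPKM + 0.1) (0.0718). AC012531.1, within the HOXC cluster of homeobox genes on chromosome 12, rose from 3.30, 3.44 and 3.11 CPM to 5.08, 5.37 and 7.25 CPM (log2 fold change 0.84, SE 0.21, adjusted p = 0.0285, and 0.0509 without siDAB2IP replicate 3). Its call was also lost without siControl replicate 1, 2 or 3 (adjusted p up to 0.104). LNCAROD, named as an activating regulator of the Wnt inhibitor gene DKK1, rose from 22.6, 23.1 and 27.1 CPM to 33.2, 31.9 and 39.1 CPM (log2 fold change 0.52, SE 0.13, adjusted p = 0.0263). Its groups were separate, and the call was lost without siControl replicate 1, siControl replicate 2 or siDAB2IP replicate 1 (adjusted p up to 0.135). The last of the 14, AL365203.2, named to complete them, had a log2 fold change of 0.57 (SE 0.16, adjusted p = 0.0376) and was called, with 1 library left out, only without siDAB2IP replicate 3 (adjusted p up to 0.179).

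The siDAB2IP replicates did not contribute equally. Among the 14 risen lincRNAs, replicate 3 was the farthest from the siControl mean in 9, replicate 2 in 4 and replicate 1 in 1. Among the 7 fallen, these numbers were 3, 3 and 1. Without replicate 3, 17 of the 21 were still called. That fit called other lincRNAs besides, with 15 rises and 14 falls among the 217. It called 2524 of 15743 genes tested, against 2192 of 15430 with all libraries. BX470102.2, AC092171.2, MIR22HG, MYOSLID, AL161431.1 and LINC01730 were called whichever library was left out and in every alternative fit over all genes.

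**Figure D4:**
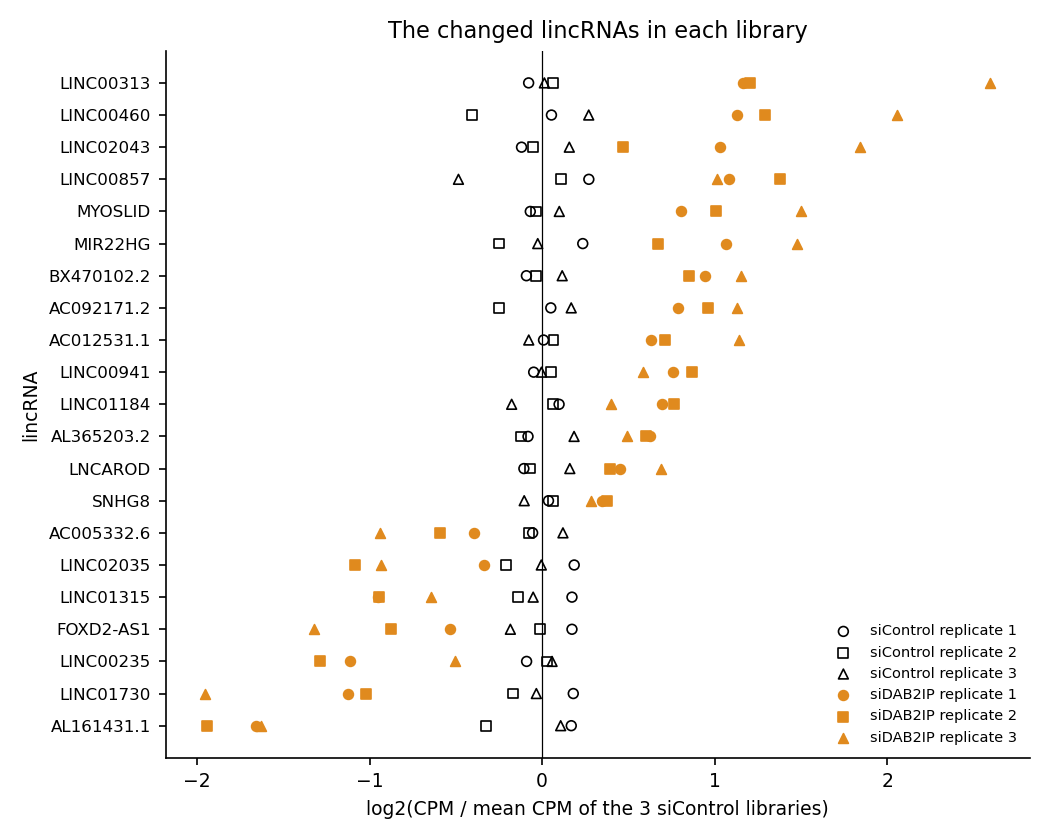
CPM of each library relative to the siControl mean (log2) for the 21 lincRNAs that changed, with open black symbols for siControl, filled orange symbols for siDAB2IP and 1 symbol shape per replicate number. The groups are separate for every gene, and the triangle of siDAB2IP replicate 3 is farthest to the right in 9 of the 14 that rose.

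The RNAs of nuclear bodies, NEAT1 and MALAT1, were among the most abundant, and NEAT1 had the greatest exon length of the set, 22767 bases. NEAT1 (chr11:65422774-65445540, plus strand) was at 1315, 977 and 1287 CPM in siControl and at 753, 489 and 1053 CPM in siDAB2IP. The groups overlapped, since siDAB2IP replicate 3 exceeded siControl replicate 2. Its log2 fold change was −0.64 (SE 0.24) and was not called (adjusted p = 0.104), while with the replicate number as a block it was −0.70 (SE 0.14, adjusted p = 0.010). Within each number the siDAB2IP library was lower. NEAT1 was also called with DESeq2 (adjusted p = 0.0204) and with no count filter (1.96e-05). Without siDAB2IP replicate 3 its log2 fold change was −0.94 (adjusted p = 0.00432). MALAT1 was at 403, 322 and 417 CPM and at 319, 231 and 414 CPM, with overlapping groups and a log2 fold change of −0.24 (SE 0.19, adjusted p = 0.443). NORAD was at 414, 393 and 405 CPM and at 478, 397 and 412 CPM (log2 fold change 0.09, SE 0.11, adjusted p = 0.651), with only siDAB2IP replicate 1 outside the siControl range.

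Of 19 genes for paraspeckle proteins, which assemble on NEAT1, 0 rose and 2 fell. These were PSPC1, a core paraspeckle protein (log2 fold change −0.37, adjusted p = 0.0342), and CPSF6, a subunit of the polyadenylation factor that sets the length of NEAT1 (−0.33, adjusted p = 0.0332). Over all genes tested 7.65% fell. The list's median was −0.24, and 1 rose and 8 fell with the replicate block, a fit in which 21.0% of all genes changed. Of 18 genes of the nuclear RNA exosome and its adaptors, which degrade many noncoding transcripts, 0 rose and 1 fell, EXOSC6 (−0.40, adjusted p = 0.0346), with a list median of −0.15 (0.01 over all genes tested).

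The set held 9 listed miRNA host genes, of which 1 rose and 0 fell, where 6.55% of all genes tested rose. The riser was MIR22HG (chr17:1711493-1717174, minus strand), whose exon holds MIR22. It went from 32.1, 22.9 and 26.8 CPM to 57.2, 43.5 and 76.1 CPM, a log2 fold change of 1.11 (SE 0.20, adjusted p = 0.00663). All siDAB2IP libraries exceeded all siControl libraries, and without replicate 3, the highest, the log2 fold change was 0.89 (adjusted p = 0.00244). The mature miRNA was not measured, and MIR22 as a separate gene had no counts.

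In all, 15 of the 217 lincRNAs hold 25 annotated miRNA genes on their own strand. MIR22HG was the only host of these that was called, where 14.2% of all genes tested changed. The products of 4 host loci follow, to show which miRNAs lie in hosts that were not called, as RefSeq mature sequences with the seed (bases 2 to 8) in capitals. The let-7 members of MIRLET7BHG and AC048341.1 share 1 seed, and the miR-29 pair of MIR29B2CHG another.
let-7a-5p: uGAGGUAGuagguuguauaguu
let-7b-5p: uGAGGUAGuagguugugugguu
let-7i-5p: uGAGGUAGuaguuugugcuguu
miR-29b-3p: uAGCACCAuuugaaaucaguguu
miR-29c-3p: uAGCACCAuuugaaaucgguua
miR-34a-5p: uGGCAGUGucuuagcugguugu

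MIRLET7BHG, host of let-7a and let-7b (chr22:46112752-46112773 and chr22:46113691-46113712, plus strand), was at 32.8, 25.6 and 27.5 CPM in siControl and 32.7, 23.0 and 26.2 CPM in siDAB2IP. Its log2 fold change was −0.07 (SE 0.15, adjusted p = 0.818), with only siDAB2IP replicate 2 outside the siControl range. AC048341.1, whose intron holds let-7i (chr12:62603691-62603712, plus strand), was at 6.92, 5.34 and 5.75 CPM and at 2.99, 3.38 and 6.44 CPM (log2 fold change −0.49, SE 0.29, adjusted p = 0.290), with only siDAB2IP replicate 3 inside the siControl range. MIR29B2CHG (miR-29c at chr1:207801865-207801886 and miR-29b at chr1:207802450-207802472, minus strand) was at 45.9, 37.5 and 43.9 CPM and at 50.7, 33.2 and 44.6 CPM, log2 fold change 0.01 (SE 0.15, adjusted p = 0.965). MiR-29 restrains collagen genes and let-7 restrains RAS and HMGA2.

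MIR34AHG, the precursor of the p53-induced miR-34a (chr1:9151735-9151756, minus strand), was at 52.1, 49.6 and 46.9 CPM in siControl. In siDAB2IP it scattered widely, at 45.0, 28.8 and 83.3 CPM (log2 fold change 0.08, SE 0.29, adjusted p = 0.893). MIR200CHG, host of the epithelial miR-200c and miR-141, was low in all libraries, from 1.33 to 2.99 CPM (log2 fold change −0.20, SE 0.33, adjusted p = 0.741). The other hosts on the list had log2 fold changes of −0.41 for MIR193BHG, 0.36 for the hypoxia-responsive MIR210HG, 0.16 for MIR4458HG and 0.09 for MIR4435-2HG, with adjusted p of 0.316 to 0.734. Without siDAB2IP replicate 3 MIR193BHG was called (log2 fold change −0.80, adjusted p = 0.0138). Of 10 genes for miRNA processing, such as DROSHA, DICER1 and the AGO genes, 0 rose and 0 fell (list median −0.18). Over all genes tested 14.2% changed, so a list of 10 is too short to set against that share. With DESeq2, AGO1 fell. Adding the replicate block, which called 21.0% of all genes, DGCR8, AGO1 and AGO4 fell.

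Among the 5 snoRNA hosts, 1 rose and 0 fell, where 6.55% of all genes tested rose. SNHG8 (chr4:118278709-118279823, plus strand), which hosts the pseudouridylation guide SNORA24, was at 68.2, 69.3 and 61.8 CPM in siControl and 84.3, 86.3 and 80.9 CPM in siDAB2IP. The 3 siDAB2IP values were close together and above all siControl values, for a log2 fold change of 0.34 (SE 0.09, adjusted p = 0.0376). Leaving out 1 library kept the call only for siDAB2IP replicate 3 (adjusted p up to 0.15), and it was also lost with no count filter and with limma on FPKM. SNHG19 (0.10), SNHG4 (0.13), SNHG15 (0.01) and EPB41L4A-AS1 (0.01) had log2 fold changes near 0, with adjusted p of 0.587 to 0.980.

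Of 11 members described in breast or other epithelial cancers, 2 rose, LINC00857 and LINC00460, and 0 fell, where 6.55% of all genes tested rose and 7.65% fell. CRNDE, an RNA raised in colorectal neoplasia, was at 32.5, 41.7 and 35.1 CPM in siControl and 31.3, 25.1 and 23.1 CPM in siDAB2IP. Its groups were narrowly separate, with a log2 fold change of −0.46 (SE 0.15, adjusted p = 0.0620, and 0.0458 with the replicate block). CRNDE was also called with DESeq2 (adjusted p = 0.0395), with no count filter (0.0129) and without siDAB2IP replicate 1 (0.0387). PVT1, the neighbour of MYC, was at 33.2, 31.1 and 35.2 CPM and at 41.1, 34.6 and 73.3 CPM, so that only replicate 3 stood far above the siControl range (log2 fold change 0.58, SE 0.23, adjusted p = 0.126). PVT1 was called with no count filter (adjusted p = 0.000631) and without siDAB2IP replicate 2 (0.0432). LINC01133 had a log2 fold change of 0.85 (SE 0.37, adjusted p = 0.154), CYTOR −0.23 (0.601) and LINP1, a DNA repair scaffold, −0.15 (0.743). Without siDAB2IP replicate 2 LINC01133 was called (log2 fold change 1.17, adjusted p = 0.0331).

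The remaining fixed lists were thinly represented. Of 4 members linked to p53 (TP53TG1, NEAT1, PVT1 and MIR34AHG), 2 linked to hypoxia or stress and 1 linked to NF-κB or inflammation, 0 rose and 0 fell, counts too small to set against the 14.2% of all genes tested that changed. NEAT1 stands on each of these lists and is the only member of the last, so the lists are not separate. NEAT1 and PVT1 were called in some of the alternative fits given above. TP53TG1 was low, at 1.88 to 3.82 CPM (log2 fold change 0.11, adjusted p = 0.844). No RNA of the epithelial differentiation list met the count minimum.

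Pairing the libraries by replicate number added 8 lincRNAs to the 21, all of which were called in that fit. The 29 are 13.4% of the lincRNAs, against 21.0% of all genes tested in the same fit. Besides NEAT1 and CRNDE, these were AF127577.4 (log2 fold change 0.68, adjusted p = 0.0159), SH3RF3-AS1 (−0.70, 0.0276), AC002401.4 (0.88, 0.0370), AL365181.2 (0.53, 0.0422), EBLN3P (0.31, 0.0449) and LINC00665 (0.38, 0.0456).

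Position relative to coding genes was not part of the choice. For 78 lincRNAs the nearest coding start site lay within 5 kb, and for 75 the coding gene was tested, 51 of them head-to-head (opposite strands, no overlap), 19 overlapping on opposite strands and 5 on the same strand. The coding neighbour changed in 14 of the 75 pairs (18.7%), 7 head-to-head and 7 overlapping. The share was 16.6% of autosomal protein-coding genes with at least 20 counts in each library, and 14.2% of all genes tested. Across pairs the log2 fold changes of lincRNA and neighbour had a Pearson r of 0.29, at 0.17 for the 51 head-to-head and 0.48 for the 19 overlapping pairs. The points of this description share the same 6 libraries, and overlapping pairs may share reads.

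Both genes changed in 2 of these pairs. MIR22HG rose with WDR81, a gene of endosomal trafficking that starts 651 bp away and overlaps it on the opposite strand (log2 fold change 0.45, SE 0.10, adjusted p = 0.0215). LINC01184 rose while SLC12A2, the Na-K-Cl cotransporter gene that starts head-to-head 594 bp away, fell from a mean of 79.6 ± 7.44 CPM (SD, n = 3) to 35.9 ± 13.8 CPM, a log2 fold change of −1.15 (SE 0.24, adjusted p = 0.0142). These neighbours thus moved in opposite directions. With the replicate block both genes changed in 5 pairs, 4 of them in the same direction, the additions being CRNDE with IRX5, SH3RF3-AS1 with SH3RF3, and AL365181.2 with BCAN.

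At any distance, the nearest coding gene was tested for 19 of the 21 changed lincRNAs and changed for 6 (31.6%), 5 of them in the direction of the lincRNA. It changed for 20 of 159 lincRNAs that were not called (12.6%), 8 of them in the direction of the lincRNA. Of all genes tested 14.2% changed, and of autosomal protein-coding genes with at least 20 counts in each library 16.6%. A link between a lincRNA and its neighbour was not tested. Beside the pairs above, FBXL18 rose (log2 fold change 0.92, adjusted p = 0.00499) with AC092171.2, which lies within it and may share its reads. KLF7, a Krüppel-like transcription factor gene 72.4 kb from MYOSLID, rose slightly (log2 fold change 0.42, adjusted p = 0.0212). IRS2, an insulin receptor substrate gene 517 kb from AL161431.1, fell (−0.80, adjusted p = 0.0106), as did TCF20, a coregulator gene 25.6 kb from LINC01315 (−0.53, adjusted p = 0.00604). Beside FOXD2-AS1, FOXD2 was at −0.63 on the log2 scale (adjusted p = 0.0739), whereas CAPN15 beside LINC00235 was at −0.01 (adjusted p = 0.978) and ANXA11 beside LINC00857 at 0.13 (adjusted p = 0.682).

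**Figure D5:**
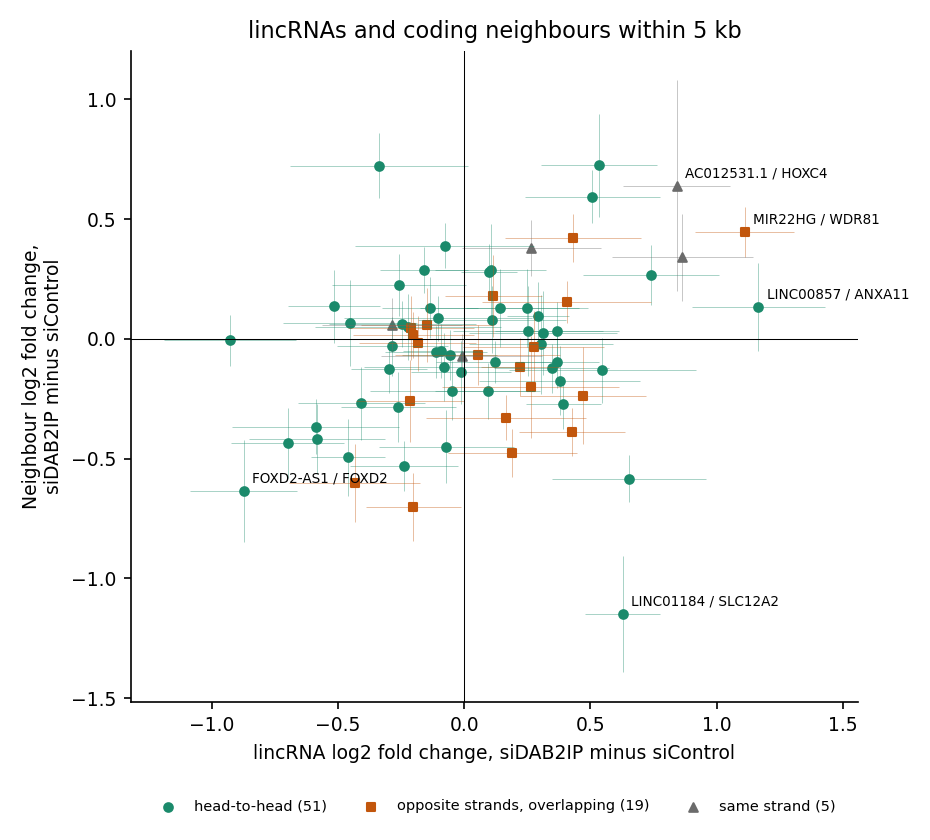
log2 fold change of the nearest coding gene against that of the lincRNA for the 75 pairs with start sites within 5 kb, with bars of 1 standard error and a symbol for each orientation. MIR22HG with WDR81 lies to the upper right, and LINC01184 with SLC12A2 to the lower right, where the lincRNA rose and its neighbour fell.

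Neighbouring members were compared as well. In 15 pairs of consecutive members within 50 kb, the fold changes had the same sign in 12, none had both genes changed and 1 had a single changed gene, where 9.68% of the members changed. That was AC005332.6, which fell beside AC005332.3 (log2 fold change 0.32, adjusted p = 0.457), 1.88 kb downstream. Several of the pairs, among them MIR34AHG with LNCTAM34A and AP006621.3 with AP006621.2, had no gap between their spans. Such pairs may share reads, so their equal signs are not separate observations.

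The count minimum itself set some memberships. AC133919.2, AL133410.1 and AC090229.1, each with a lowest count of 20, were just inside, and AC108062.1, C9orf163 and AC009283.1, each with a lowest count of 19, were just outside. AC108062.1 had 19, 27 and 35 counts in siControl and 30, 38 and 111 in siDAB2IP.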

How the data were processed

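RNA-Seq was performed on 3 siControl and 3 siDAB2IP MCF10A libraries. The authors deposited whole-number counts per gene without normalization, and FPKM values, in which the authors divided counts by gene length and library total. The submitters' processing notes name hg38, STAR 2.6.1d, featureCounts 1.5.0-p3, DESeq2 1.20.0 and edgeR 3.24.3, without roles or the strand setting. All 58735 genes had the positions of GENCODE 29, which gave exons and neighbours, and promoter and miRNA sequences were taken from RefSeq (GRCh38.p14).

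The count table was fitted with edgeR 4.0.16 under R 4.3.3 (filterByExpr, TMM scaling, quasi-likelihood test of siDAB2IP against siControl, Benjamini-Hochberg adjustment over the 15430 genes tested), with an adjusted p under 0.05 called changed. Levels were compared between genes only in FPKM. SE denotes the standard error of the log2 fold change. Exact permutation tests of 3 libraries against 3 cannot go below 0.1 and were not used. A count of 0 allows up to 3 counts, or 0.137 to 0.183 CPM, which covers counting error only. The scripts were tested on simulated data.

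The lincRNAs and the gene lists were chosen with earlier results of these data known. Named were up to 12 lincRNAs with the smallest p among those that rose and among those that fell (7 fell), the 10 with the highest FPKM, members of the role lists, coding neighbours of changed members and changed genes of the machinery lists. AL365203.2 and the lincRNAs added by the replicate block or near the count minimum were named after their values were seen.

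Both groups carry replicate numbers 1, 2 and 3. After subtracting group means, the correlation across genes was 0.26, 0.15 and 0.25 between same-numbered libraries, and −0.28 to 0.02 between the rest. Every same-numbered pair was thus above 0.1, the criterion for pairing, although the labels do not say what the numbers stand for. The fit without the block was set as the main one and is reported, and the blocked value is given where it changes a call. Alternatives were DESeq2 1.42.0, its size factors, library size only, no count filter, limma 3.58.1 on log2(FPKM + 1) and log2(FPKM + 0.1), the block, stricter thresholds, other count minimums, lincRNAs free of overlap, and leaving out each library.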

Additional observations from a re-analysis of the deposited data

How the results depend on the processing

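Leaving out 1 library at a time gave 4 to 15 risen and 2 to 14 fallen lincRNAs, against 14 and 7, and 723 to 2524 changed genes in all, against 2192. The rises and falls numbered 7 and 2 without siControl replicate 1, 4 and 2 without siControl replicate 2, and 7 and 3 without siControl replicate 3. Without siDAB2IP replicate 2, 2 fell, and without siDAB2IP replicate 3, 14 fell. At an adjusted p under 0.01, 5 rose and 1 fell, and with a required log2 change of 1 or more in size, 6 and 2. A minimum of 50 counts kept 112 lincRNAs, of which 4 fell, and a mean count of 20 kept 313, of which 12 fell. Of the 94 whose span overlaps no other gene 4 rose, and of the 135 whose exons overlap none, a choice made after seeing the data, 9 rose. These sets hold fewer or more genes by construction. With limma on log2(FPKM + 0.1), 1427 genes changed.

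With the replicate block 19 lincRNAs rose and 10 fell, in a fit where 21.0% of all genes tested changed. Pairs with both genes changed in the same direction numbered 4 with the block and 3 within 50 kb, against 1. Changed paraspeckle genes numbered 6 with DESeq2 and 9 with the block, against 2, miRNA processing genes 1 and 3, against 0, and exosome genes 2 by library size only, against 1. The cause of these shifts was not tested. The median log2 fold change of the lincRNAs ranged from −0.06 (span free of overlap) to 0.12 (without siDAB2IP replicate 2), and it was below 0 in 5 of the alternatives. For single lincRNAs and genes named, 487 values under alternatives kept direction and call, 72 lost the call, 12 gained it and 31 changed sign, none of them called there or in the reported fit. With 1 library left out the log2 fold change ranged from −0.015 to 0.23 for SNHG4, −0.052 to 0.23 for AC093484.4, −0.18 to 0.15 for SNHG15, −0.40 to 0.028 for CYTOR, −0.042 to 0.043 for EPB41L4A-AS1, −0.33 to 0.035 for LINP1, −0.42 to 0.035 for MIR200CHG, −0.13 to 0.17 for MIR29B2CHG, −0.43 to 0.37 for MIR34AHG, −0.16 to 0.30 for MIR4458HG, −0.22 to 0.042 for MIRLET7BHG and −0.12 to 0.25 for TP53TG1. SNHG15 was at −0.0034 with no count filter and −0.0016 with 10 counts required. MIR29B2CHG and MIR34AHG were at −0.0022 and −0.049 with the block, −0.00088 and −0.033 with limma on log2(FPKM + 1), and −0.0054 and −0.056 on log2(FPKM + 0.1). The median level was 4.17 CPM, and the effect of depth on the calls was not tested.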

Other observations

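LincRNAs with a mean of at least 20 counts that fell short of 20 in some library were not part of the set, and edgeR tested 96 such genes, with 3 rises and 5 falls, where 14.2% of all genes tested changed and 5.91% of genes below 5 CPM with at least 20 counts in each library. AC004816.1 had 19, 22 and 20 counts in siControl and 56, 44 and 50 in siDAB2IP (log2 fold change 1.33, SE 0.27, adjusted p = 0.0120), and AL033397.1 (1.17) and GMDS-DT (1.14) also rose. AL121894.2 had 40, 45 and 38 counts in siControl and 14, 18 and 9 in siDAB2IP (−1.55, SE 0.32, adjusted p = 0.0132). OGFRP1 (−1.53), LINC01932 (−1.37), USP46-AS1 (−1.35) and AC126768.2 (−1.13) fell as well. LINC02188 had 171, 197 and 134 counts in siControl and 87, 79 and 13 in siDAB2IP, all lower, and missed the threshold (−1.46, SE 0.46, adjusted p = 0.0596). Among all lincRNAs with a mean of at least 20 counts the numbers that rose and fell were 17 and 12.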
